A study of Mus musculus with 16 samples.

Results

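Collagens are trimeric proteins of the extracellular matrix, and their genes code for the individual alpha chains. Fibrillar collagens, of which types I and III are the most abundant in skin, are made mainly by dermal fibroblasts and assemble into the fibrils that give the dermis its tensile strength. Basement membrane collagens lie at the border of epidermis and dermis and around vessels: type IV forms a sheet-like network, type VII forms the anchoring fibrils, type XVII is a transmembrane protein of basal keratinocyte hemidesmosomes, and types XV and XVIII are multiplexins of the basement membrane zone. The remaining, minor collagens include the beaded filaments of type VI, the fibril-associated types such as XII and XIV, and several transmembrane types.

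The collagen genes were taken by name, as every gene symbol made of Col, a number, the letter a and a further number. This gave 44 of the 23282 genes in the count tables, of which 11 were fibrillar, 10 were basement membrane and 23 were minor collagens. Expression was high enough for testing in 33 of the 44, namely 8 fibrillar, all 10 basement membrane and 15 minor collagens.

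Skin RNA of wild-type male C57BL/6N mice was sequenced from the 3′ ends of transcripts in 4 groups of 4 samples, 16 libraries in all. The mice were 3 weeks old at purchase and had 1 week of adaptation. The Cont group received normal chow. The LowAhR group received a diet low in ligands of the aryl hydrocarbon receptor (AhR), a ligand-activated transcription factor, for 12 weeks. The LowAhR + AD group received the same diet and, after its first 2 weeks, 1% 2,4-dinitrochlorobenzene (DNCB) on the dorsal skin 2 times a week for 10 weeks, a contact sensitizer that induces a dermatitis used as a model of atopic dermatitis (AD). The LowAhR + AD + BJ group received the diet, DNCB and 1 g/kg per day of Bojungikgi-tang (BJIKT), a herbal extract, by oral gavage. The 3 groups on the low ligand diet also had a different bedding, so diet and bedding cannot be told apart, and DNCB was examined on the low ligand diet alone. DNCB was applied in acetone and olive oil, and BJIKT was given in water. The sources used here name no vehicle or sham gavage for the other groups. DNCB and BJIKT therefore cannot be told apart from their vehicles and handling. The sources used here do not say that each sample came from a separate mouse, so p-values measure the spread between these samples, which may be technical.

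Levels are given as CPM, each gene's count relative to its library's total after scaling by TMM factors (trimmed mean of M values). Library totals ran from 7080508 to 13467477 counts, and every library of both DNCB groups (10614393 to 13467477) was larger than every library of the Cont and LowAhR groups (7080508 to 8773876). Library size and DNCB thus cannot be told apart. Replicate 1 of LowAhR + AD stood apart: 41.8% of its genes were at 0 counts, against at most 39.4% in the other 15 libraries. Its ratio of Col1a1 to Col1a2 was 5.79, against 0.445 to 1.63 elsewhere. The 1.63 was that of Cont replicate 1. That Cont library's ratio of Col1a1 to Col3a1, 4.40, was near the 4.47 of LowAhR + AD replicate 1. The numbers of collagen genes that passed in comparisons with LowAhR + AD replicate 1 are given with and without this replicate.

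The makeup of the skin samples differed between LowAhR + AD and LowAhR along with the collagens. Summed CPM of 12 fibroblast markers lay between 1102 and 2892 in LowAhR + AD and between 3706 and 5039 in LowAhR, with 3 of the 12 significantly lower. Skeletal muscle markers summed to 448 to 3717 against 9700.5 to 22941 (10 of 10 lower), and adipocyte markers to 378 to 3846 against 7387 to 12115 (7 of 8 lower). Basal keratinocyte markers summed to 5559 to 10764 against 2754 to 3449.8 (4 of 7 higher), and none of the 7 endothelial markers passed the test. Of 7 mural cell markers 2 were lower. Among 10 hair follicle markers 1 was higher, with sums of 5618 to 19603 against 102 to 7989. Of 8 tested neutrophil and macrophage markers 3 were higher, while the other 5 had negative estimates. The median log2 fold change of that list was -0.345. Its sums overlapped, at 164 to 2794 CPM in LowAhR + AD and 591 to 665 CPM in LowAhR. Krt72, a hair follicle keratin, was at 0 in all 4 Cont libraries. In bulk skin, fewer cells of a type and less RNA per cell cannot be told apart, and the part of these shifts in the collagen results was not tested.

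The collagen genes took a smaller share of the counts in the DNCB groups. All 44 together held 2.78 to 6.02% of counts in Cont, 2.00 to 4.06% in LowAhR, 0.569 to 1.88% in LowAhR + AD and 0.727 to 1.37% in LowAhR + AD + BJ. Summed fibrillar CPM was 41019 ± 14369 in Cont, 25355 ± 10042 in LowAhR, 8694 ± 6058 in LowAhR + AD and 9096 ± 2578 in LowAhR + AD + BJ (SD, n = 4 each). No library of either DNCB group reached the lowest LowAhR library: the fibrillar sums ranged from 3681 to 17461 in both DNCB groups together and from 18986 to 40314 in LowAhR. Fibrillar collagens made up 93.1 to 97.3% of collagen CPM in the groups without DNCB, 74.8 to 88.7% in LowAhR + AD and 87.2 to 93.2% in LowAhR + AD + BJ.

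The basement membrane sum behaved differently, with 686 ± 72.9 CPM in Cont, 659.8 ± 61.7 in LowAhR, 705 ± 70.1 in LowAhR + AD and 487 ± 56.0 in LowAhR + AD + BJ (SD, n = 4 each). The first 3 groups overlapped between 593 and 806 CPM, while the 4 LowAhR + AD + BJ libraries, at 413 to 535 CPM, all lay below them. Minor collagens summed to 529 to 921 CPM in Cont, 511 to 888 in LowAhR, 552 to 1543 in LowAhR + AD and 469.5 to 643 in LowAhR + AD + BJ, with overlap among all groups. These sums are descriptions and were not tested.

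**Figure D1:**
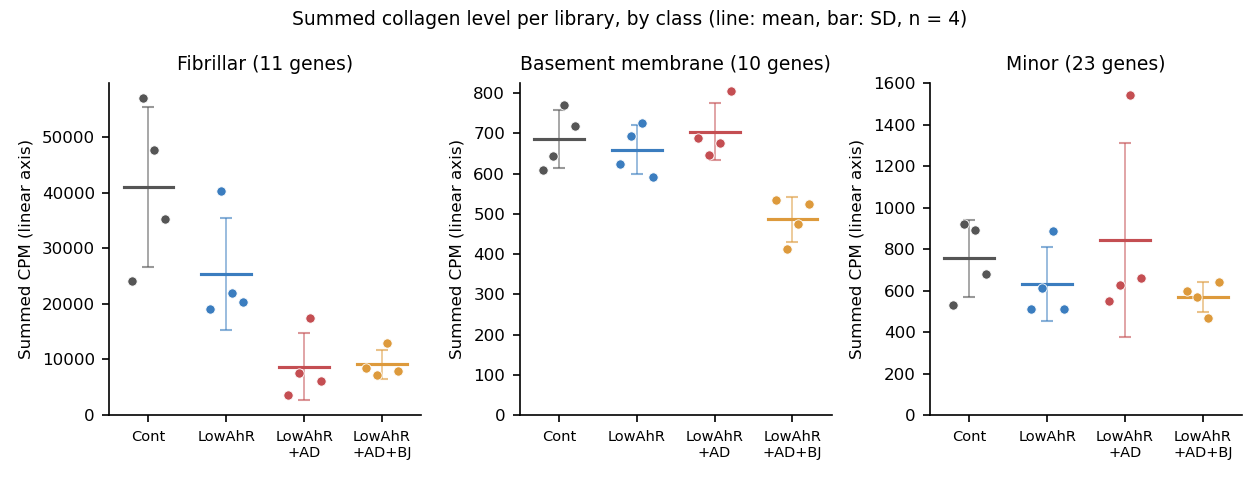
Summed CPM of fibrillar, basement membrane and minor collagens in each of the 16 libraries (points), by group, with the group's mean (line) and SD (bar, n = 4). All fibrillar sums of both DNCB groups lie at or below 17461 CPM and all those of Cont and LowAhR at or above 18986 CPM, whereas the basement membrane sums are set apart in LowAhR + AD + BJ only.

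Whether DNCB changed collagen expression in mice on the low ligand diet was examined by LowAhR + AD against LowAhR. Of the 33 tested collagen genes 7 passed (edgeR's quasi-likelihood test, Benjamini-Hochberg adjusted p over all genes), 3 higher and 4 lower, which is 21.2% beside 12.6% of all 14854 tested genes (6.42% higher and 6.21% lower). The type I chains Col1a1 and Col1a2, the hemidesmosomal Col17a1 and the type IV chain Col4a4 fell, and the fibril-associated Col12a1, the multiplexin Col18a1 and the anchoring fibril gene Col7a1 rose. The 4 libraries of each group did not overlap for 7 collagen genes, beside 18.8% of all tested genes. The median log2 fold change of the 33 genes was 0.48, against 0.04 over all tested genes, and 22 of the 33 estimates were positive. By class, 2 of 8 fibrillar collagens passed, both lower, 4 of 10 basement membrane collagens passed, 2 in each direction, and 1 of 15 minor collagens passed, as higher. Without LowAhR + AD replicate 1 the comparison gave 8 collagen genes, the same 7 and the type IV chain Col4a6.

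Against chow-fed Cont, LowAhR + AD differed in diet, bedding and DNCB together. In that comparison 9 of the 33 collagen genes passed, 4 higher and 5 lower. This share of 27.3% stood near the 21.8% of all tested genes (12.3% higher and 9.47% lower). The libraries did not overlap for 8 collagen genes, beside 24.7% of all genes. The 9 were the 7 above, in the same directions, with the type III chain Col3a1 lower and the type IV chain Col4a2 higher. Of the cell markers, 8 of 10 for hair follicle, 3 of 7 for basal keratinocytes and 3 of 8 tested for neutrophils and macrophages were higher. For endothelium 1 of 7 was higher, and all 7 estimates were positive (median log2 fold change 0.91). Lower were 6 of 10 for muscle, 4 of 12 for fibroblasts and 3 of 8 for adipocytes. Of 7 mural cell markers 1 was higher and 3 were lower. The part of these shifts in the collagen values was not tested. This comparison shares the LowAhR + AD libraries with the preceding one, and without LowAhR + AD replicate 1 it gave 10 collagen genes. In the test over all 4 groups the same 9 genes passed, beside 23.0% of all genes, with adjusted p from 5.01e-05 for Col12a1 to 0.0317 for Col3a1.

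**Figure D2:**
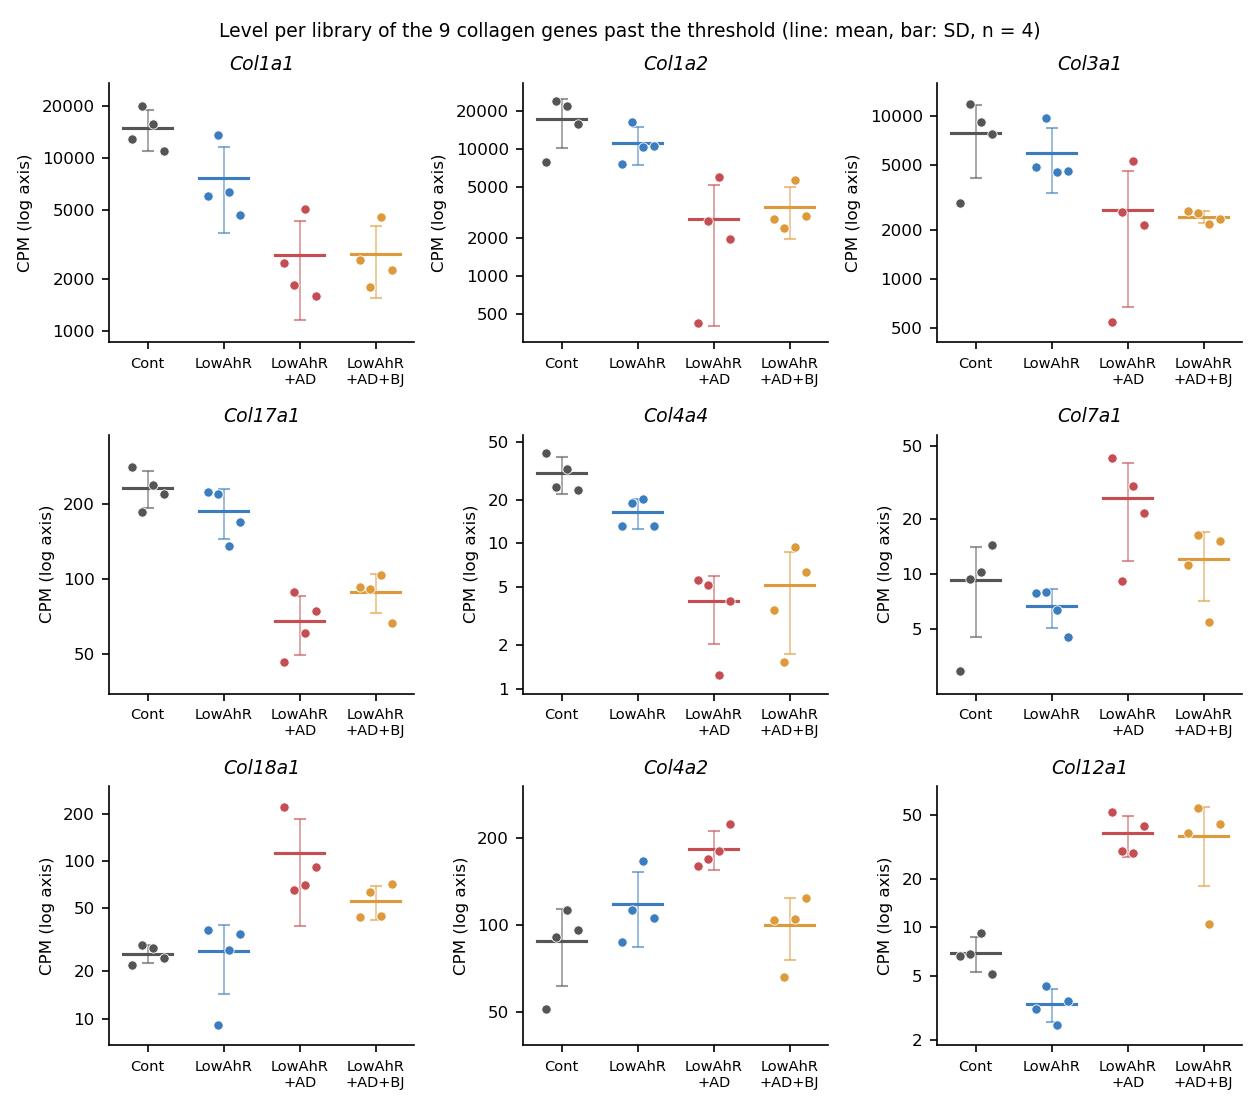
CPM (log10 axis) of the collagen genes that passed in any comparison, a panel for each gene, with each of the 16 libraries as a point and the group's mean (line) and SD (bar, n = 4). Col12a1, Col18a1 and Col17a1 of LowAhR + AD lie clear of every Cont and LowAhR library, while the Col1a1 and Col3a1 points of LowAhR + AD and LowAhR overlap.

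Among the fibrillar collagens the type I and III genes, which held 69.6 to 95.6% of the collagen counts of each library, had lower means in both DNCB groups than in the others. Col1a1 (chromosome 11, 94936224 to 94953042, plus strand, GRCm38) codes for the alpha 1 chain of type I collagen. It measured 12879.9, 20013, 15623 and 10945 CPM in Cont and 6047, 13459, 6355 and 4689.9 CPM in LowAhR. In LowAhR + AD it measured 2455, 1844, 5036 and 1583 CPM, and in LowAhR + AD + BJ 2550.4, 1785, 4572 and 2235 CPM. All DNCB libraries lay below all Cont libraries, and 1 LowAhR + AD library, replicate 3, lay above the lowest LowAhR library. The log2 fold change was -1.48 ± 0.420 (SE) against LowAhR (adjusted p = 0.0268) and -2.45 ± 0.433 against Cont (adjusted p = 0.000921). The call against LowAhR was lost without LowAhR replicate 2 (log2 fold change -1.06, adjusted p = 0.124), LowAhR + AD replicate 2 (0.0794) or LowAhR + AD replicate 4 (0.0765), and with only the 8 libraries compared (0.0893).

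Col1a2 (chromosome 6, 4504814 to 4541544, plus strand), the alpha 2 chain of the same trimer, measured 7911, 24141, 21975 and 15846 CPM in Cont and 7605, 16384, 10389 and 10543 CPM in LowAhR. The LowAhR + AD libraries held 424, 2712, 6085 and 1948 CPM and the LowAhR + AD + BJ libraries 2818, 2404, 5747 and 2970.5 CPM. Every DNCB library was below every library without DNCB. The LowAhR + AD change was -2.01 ± 0.566 (log2, SE) against LowAhR (adjusted p = 0.0265) and -2.65 ± 0.579 against Cont (adjusted p = 0.00373). The former was lost without LowAhR replicate 2 (adjusted p = 0.0796) or 3 (0.0513), without LowAhR + AD replicate 2 (0.0636) or 4 (0.0715), and with only the 8 libraries compared (0.0924).

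Col3a1 (chromosome 1, 45311538 to 45349706, plus strand) codes for type III collagen, which co-assembles with type I. Its values were 2928, 11809, 9179 and 7776 CPM in Cont, 4863, 9737, 4529.6 and 4610.3 CPM in LowAhR, 549.6, 2575, 5277 and 2148 CPM in LowAhR + AD, and 2612, 2557, 2178 and 2324 CPM in LowAhR + AD + BJ. LowAhR + AD overlapped both Cont and LowAhR through its replicate 3. The change of -1.17 ± 0.502 (log2, SE) against LowAhR missed the threshold (adjusted p = 0.135) but passed without LowAhR + AD replicate 3 (-1.75, adjusted p = 0.0269) and under DESeq2 (0.0474). Against Cont it was -1.59 ± 0.507 (adjusted p = 0.0319), and this call was lost without Cont replicate 2 (adjusted p = 0.102), 3 (0.0738) or 4 (0.0574) or LowAhR + AD replicate 2 (0.0715) or 4 (0.0824), and with only the 8 libraries compared (0.0990). An annotated transcript, Gm47302, overlaps Col3a1 exons on the same strand, and its reads could be split between the genes.

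Of the other tested fibrillar collagens, Col11a1, a regulator of fibril diameter, had higher values in all 4 LowAhR + AD libraries (6.33, 14.8, 24.3 and 8.03 CPM) than in any LowAhR library (0.406, 5.38, 4.42 and 2.15 CPM). The difference was 2.11 ± 0.785 (log2, SE) and missed the threshold (adjusted p = 0.0847), as did 2.04 against Cont (0.0712), which passed without LowAhR + AD replicate 1 (0.0472). Under DESeq2 both passed (0.0365 and 0.0311), and with only the 8 libraries compared the difference from Cont passed (0.0413). Col27a1 differed by 1.60 from LowAhR (adjusted p = 0.122), and Col5a2 and Col5a3, chains of type V that help to start fibrils, by -0.95 (0.0806) and 1.14 (0.0650) from Cont. The Col5a2 difference passed without Cont replicate 1 (0.0349) or LowAhR + AD replicate 3 (0.0192), and that of Col5a3 without Cont replicate 1 (0.0233), and both passed under DESeq2 (0.0362 and 0.0478). Thus the fibrillar estimates did not share a sign: 4 of the 8 against LowAhR were positive and 4 negative, with a median of -0.07 on the log2 scale. The smallest positive estimate, 0.13 for Col5a1 (adjusted p = 0.890), went with a high value in LowAhR + AD replicate 3. Col5a1 measured 82.6, 92.1, 484 and 101 CPM in LowAhR + AD and 121 to 223 CPM in LowAhR. Its difference in mean log2 CPM was -0.29, and it passed against Cont without LowAhR + AD replicate 3.

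The basement membrane class held genes that moved in opposite directions. Col17a1 (chromosome 19, 47646344 to 47692094, minus strand), type XVII collagen of basal keratinocytes, measured 280.5, 186, 238 and 219 CPM in Cont and 222, 218, 136 and 169 CPM in LowAhR. In LowAhR + AD it measured 46.2, 88.5, 60.7 and 74.2 CPM and in LowAhR + AD + BJ 93.1, 91.1, 103 and 66.3 CPM. All 8 DNCB libraries were below all 8 others. The change was -1.47 ± 0.236 (log2, SE) against LowAhR (adjusted p = 0.00106) and -1.78 ± 0.238 against Cont (adjusted p = 0.000165), and both calls held with any 1 library left out. Basal keratinocyte markers moved the other way, with 4 of 7 higher in LowAhR + AD than in LowAhR.

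Col4a4 (chromosome 1, 82448423 to 82586849, minus strand), a chain of the type IV network with restricted tissue distribution, measured 41.5, 24.5, 32.7 and 23.1 CPM in Cont and 13.3, 19.1, 20.3 and 13.1 CPM in LowAhR. The LowAhR + AD libraries held 5.57, 5.17, 1.24 and 4.02 CPM and those with BJIKT 3.47, 1.53, 9.49 and 6.35 CPM. The Cont, LowAhR and LowAhR + AD values formed 3 ranges without overlap. The decrease was -2.04 ± 0.50 (log2, SE) against LowAhR (adjusted p = 0.0134) and -2.92 ± 0.514 against Cont (adjusted p = 0.000878), and held with any 1 library left out.

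Col18a1 (chromosome 10, 77052178 to 77166548, minus strand), whose product is the source of endostatin, measured 21.8, 29.3, 27.9 and 24.4 CPM in Cont and 36.7, 9.09, 27.2 and 34.4 CPM in LowAhR. It stood at 221, 65.5, 70.3 and 92.0 CPM in LowAhR + AD and at 44.0, 63.8, 44.8 and 71.6 CPM in LowAhR + AD + BJ. Every DNCB library was above every library without DNCB, and LowAhR + AD replicate 1 was far above the rest of its group. The increase was 2.06 ± 0.408 (log2, SE) against LowAhR (adjusted p = 0.00394) and 2.12 ± 0.409 against Cont (adjusted p = 0.00163), and it passed with any 1 library left out, replicate 1 included.

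Col7a1 (chromosome 9, 108953586 to 108984875, plus strand), the anchoring fibril collagen, held 2.95, 9.30, 10.2 and 14.4 CPM in Cont and 7.85, 7.94, 6.37 and 4.53 CPM in LowAhR. It held 42.7, 9.11, 30.3 and 21.5 CPM in LowAhR + AD and 11.1, 16.3, 5.45 and 15.1 CPM in LowAhR + AD + BJ. LowAhR + AD lay above all LowAhR libraries but overlapped Cont. The change was 1.96 ± 0.506 (log2, SE) against LowAhR (adjusted p = 0.0177) and 1.49 ± 0.497 against Cont (adjusted p = 0.0390). The call against LowAhR held with any 1 library left out but not under limma voom (adjusted p = 0.0785). The microRNA gene Mir711 overlaps Col7a1 exons on the same strand. The call against Cont was lost under limma voom (0.0870), with only the 8 libraries compared (0.0876) and with the replicate block. It was also lost without Cont replicate 1 (0.0950), 2 (0.0802) or 3 (0.0705) or LowAhR + AD replicate 1 (log2 fold change 1.12, 0.118), 3 (0.0782) or 4 (0.0552).

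Col4a2 (chromosome 8, 11312805 to 11449287, plus strand), a chain of the ubiquitous type IV network, measured 51.3, 90.8, 113 and 96.3 CPM in Cont, 87.7, 112, 167 and 105 CPM in LowAhR, and 159.9, 169, 179 and 224 CPM in LowAhR + AD. No Cont library reached the lowest LowAhR + AD value, and 3 of the 4 LowAhR + AD values exceeded the highest LowAhR value. Against Cont the log2 fold change was 1.06 ± 0.260 (adjusted p = 0.00767), and against LowAhR it was 0.63 ± 0.258 and did not pass (adjusted p = 0.116). Col4a1, its partner chain, starts 21 bases away on the opposite strand and had 174 to 273 CPM in Cont, 203 to 287 CPM in LowAhR and 169 to 352 CPM in LowAhR + AD, a log2 difference of 0.17 from LowAhR (adjusted p = 0.691). The ratio of Col4a1 to Col4a2 within a library was 2.37 to 3.38 in Cont, 1.72 to 2.48 in LowAhR, 1.05 to 1.64 in LowAhR + AD and 1.55 to 2.41 in LowAhR + AD + BJ. Their exons overlap on opposite strands where both genes start, while the libraries were made from transcript ends. The strand setting of the counting is not given in the sources used here, so any reads in the overlap cannot be told apart.

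Among the minor collagens a single gene passed, with the largest estimate of the 33 when LowAhR + AD was set against LowAhR. Col12a1 (chromosome 9, 79598991 to 79718831, minus strand), a fibril-associated collagen that bridges fibrils, measured 6.68, 6.85, 9.25 and 5.15 CPM in Cont and 3.11, 4.35, 2.47 and 3.46 CPM in LowAhR. In LowAhR + AD it measured 52.7, 30.03, 29.1 and 42.6 CPM and in LowAhR + AD + BJ 38.5, 55.6, 10.6 and 44.2 CPM. Each DNCB library was above each library without DNCB. The increase was 3.52 ± 0.429 (log2, SE) against LowAhR (adjusted p = 0.000148) and 2.47 ± 0.406 against Cont (adjusted p = 0.000575), and it passed with any 1 library left out. Within a library Col12a1 stood at 0.000323 to 0.000738 of Col1a1 in the groups without DNCB and at 0.00231 to 0.0312 in those with it.

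The type VI genes Col6a1, Col6a2 and Col6a3, which encode the beaded filament trimer, were the minor collagens with the most counts. Col6a1 measured 82.3 to 171 CPM in Cont, 90.3 to 190 CPM in LowAhR and 66.9 to 273 CPM in LowAhR + AD, a log2 difference of 0.03 from LowAhR (adjusted p = 0.970). Col6a2 differed by 0.53 (adjusted p = 0.384) and Col6a3 by 0.28 (adjusted p = 0.698). For all 3 the highest value of the LowAhR + AD group was that of replicate 3, at 273, 332 and 579 CPM. None of the 5 tested type VI genes passed in any of the 5 comparisons in the reported edgeR fit with all 16 libraries. Col6a1 passed in LowAhR + AD + BJ against LowAhR, as lower, under DESeq2 (adjusted p = 0.0433) and in edgeR with only the 8 libraries compared (0.0274). Col16a1, a further fibril-associated collagen, differed by 0.85 from LowAhR (adjusted p = 0.0712) and passed without LowAhR + AD replicate 2 (log2 1.10, adjusted p = 0.0169).

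**Figure D3:**
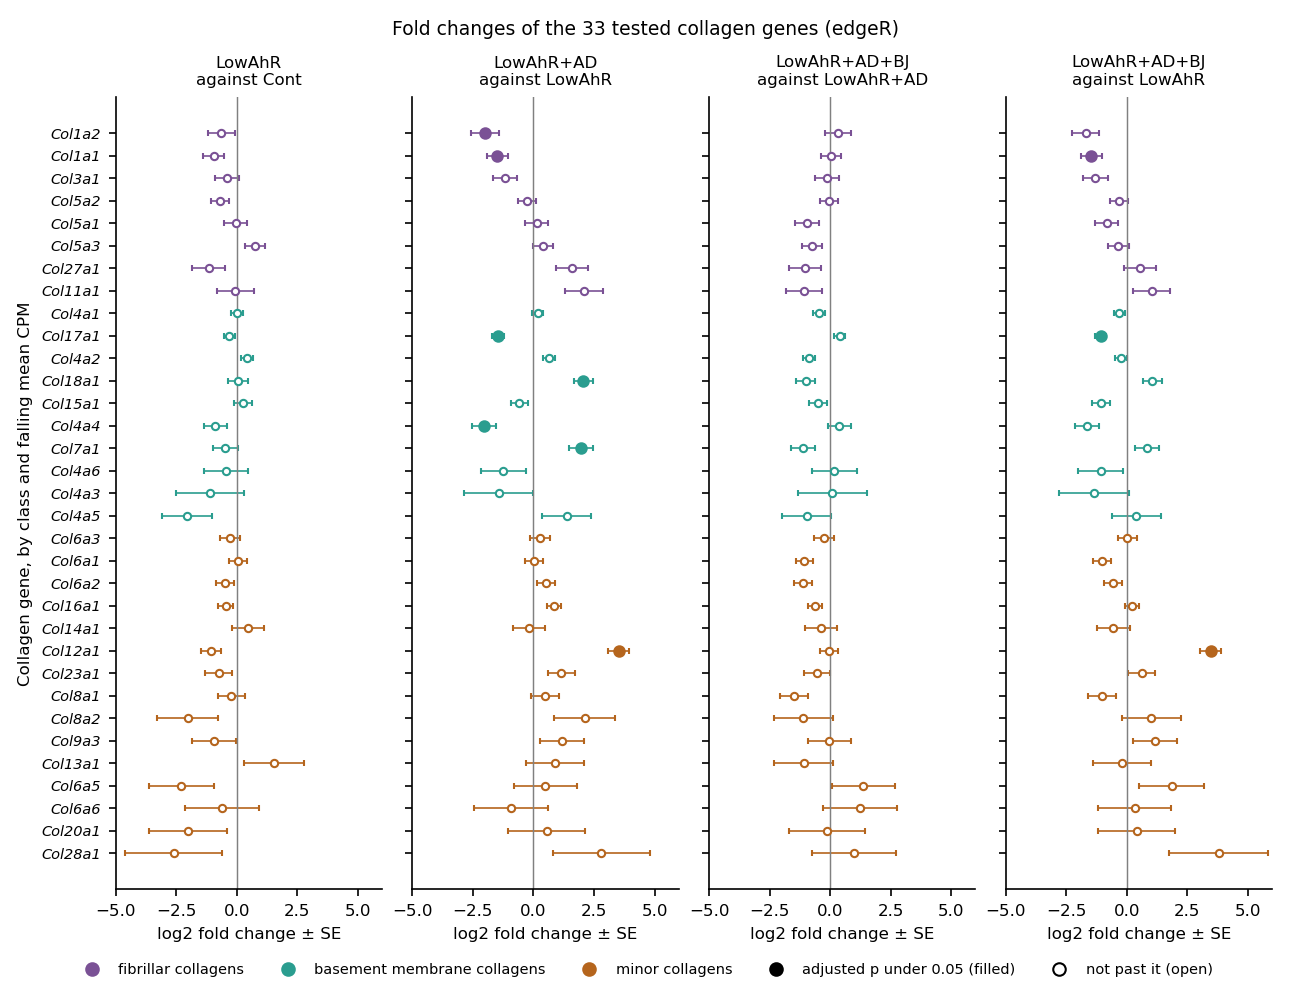
Log2 fold changes with standard errors of the 33 tested collagen genes in 4 comparisons, coloured by class, with filled points where the adjusted p passed. Filled points lie on both sides of 0 in LowAhR + AD against LowAhR, from -2.04 for Col4a4 to 3.52 for Col12a1, 3 remain in LowAhR + AD + BJ against LowAhR, and the other panels have none.

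The diet alone was examined by LowAhR against Cont. No collagen gene passed in edgeR's test. An unadjusted p under 0.05 was reached by 2 of the 33, Col1a1 and Col12a1, beside 13.7% of all genes. Adjusted calls over all genes were 0% in the reported edgeR fit. With only the 8 libraries compared edgeR called 250 genes, and with at least 10 counts in every library 45, while DESeq2 called 491. None of these was a collagen, and limma voom called no collagen either. Col1a1 differed by -0.96 ± 0.415 (log2, SE; adjusted p = 0.304) and Col12a1 by -1.06 ± 0.410 (adjusted p = 0.241). Col4a4 and Col12a1 were lower in every LowAhR than in every Cont library, 2 of 33 genes beside 11.3% of all tested genes. Of the 33 estimates 25 were negative, with a median of -0.47 on the log2 scale against 0.03 over all genes. Cell markers moved along with the diet: summed adipocyte markers were at 7387 to 12115 CPM in LowAhR and at 2932 to 5750 CPM in Cont without overlap, with 6 of 8 markers under an unadjusted p of 0.05, and 8 of 10 hair follicle markers were under it, with a median log2 difference of 3.00. No marker of either list passed after adjustment, and their part in the collagen estimates was not tested.

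Whether BJIKT changed collagen expression in mice with the diet and DNCB was examined by LowAhR + AD + BJ against LowAhR + AD. No collagen gene passed in edgeR's test, beside 0% of all tested genes, nor under DESeq2, which called 17 genes, or limma voom. An unadjusted p under 0.05 was reached by 6 of the 33, beside 9.46% of all genes, and all 6 were lower with BJIKT: Col4a2, Col6a1, Col6a2, Col7a1, Col8a1 and Col18a1. Their adjusted p ran from 0.498 to 0.509. Of the 33 estimates 24 were negative, with a median of -0.47 on the log2 scale against 0.00 over all genes.

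Groups did not overlap for 2 of these, beside 5.08% of all genes. Col4a2 measured 104, 66.4, 105 and 124 CPM with BJIKT and 159.9, 169, 179 and 224 CPM without it, a log2 difference of -0.87 ± 0.259 (adjusted p = 0.498). Col8a1, a short-chain collagen of vessels, measured 4.38, 2.24, 3.11 and 2.82 CPM against 10.5, 7.14, 13.0 and 4.90 CPM, a difference of -1.50 ± 0.583 (adjusted p = 0.50). The endothelial markers also had lower values with BJIKT, with summed CPM of 108 to 179 against 161 to 283 and 5 of 7 under an unadjusted p of 0.05, and all 10 muscle markers had higher estimates (median log2 difference 1.18, 4 of 10 under that p). Their part in these values was not tested.

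The other 4 overlapped. Col18a1 was 44.0 to 71.6 CPM with BJIKT and 65.5 to 221 without it (log2 difference -1.0 ± 0.394, adjusted p = 0.50), and Col7a1 was 5.45 to 16.3 against 9.11 to 42.7 CPM (-1.11 ± 0.490, adjusted p = 0.509). Col6a1 was 59.8 to 89.3 against 66.9 to 273 CPM (-1.06, adjusted p = 0.498), and Col6a2 63.9 to 85.8 against 83.1 to 332 CPM (-1.11, adjusted p = 0.498). For the other named genes that passed against LowAhR or Cont no call was made: 0.03 ± 0.411 for Col1a1 (adjusted p = 0.988), 0.32 ± 0.546 for Col1a2 (0.879), -0.13 ± 0.495 for Col3a1 (0.953), -0.05 ± 0.379 for Col12a1 (0.973), 0.39 ± 0.232 for Col17a1 (0.599) and 0.39 ± 0.489 for Col4a4 (0.827). Missing the threshold does not show that the DNCB groups were alike.

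LowAhR + AD + BJ was also set against LowAhR, which combines DNCB and BJIKT. Here 3 of the 33 collagen genes passed, which is 9.09% beside 6.77% of all tested genes, and 9 did not overlap, beside 17.1%. Along with them 6 of 8 adipocyte, 3 of 12 fibroblast, 2 of 10 muscle and 1 of 7 mural cell markers were lower. Higher were 2 of 8 tested neutrophil and macrophage markers and 1 of 7 basal keratinocyte markers. The ribosomal RNA precursor gene Rn45s took 0.783 to 1.61% of counts with BJIKT against 2.28 to 8.48% in LowAhR. The part of these shifts was not tested. Col12a1 was higher by 3.47 ± 0.429 (log2, SE; adjusted p = 0.000409), and Col17a1 and Col1a1 were lower, by -1.08 ± 0.234 (adjusted p = 0.0106) and -1.46 ± 0.419 (adjusted p = 0.0437). Leaving out 1 library at a time ended the Col1a1 call in 6 of 8 cases (adjusted p from 0.0660 to 0.179), and it remained only without LowAhR replicate 4 or LowAhR + AD + BJ replicate 3. With no filter on low counts it was lost as well (0.0511). Without LowAhR + AD + BJ replicate 3 Col4a4 (adjusted p = 0.0168) and Col1a2 (0.0453) passed as well, which made 5 genes. Col4a4 also passed in 7 of 11 other settings, among them DESeq2 (0.0108) and limma voom (0.0488). With all libraries the differences of Col4a4 and Col1a2 were -1.65 ± 0.494 (0.0517) and -1.69 ± 0.560 (0.0776). Col3a1 differed by -1.30 (0.133), Col18a1 by 1.06 (0.119), Col6a1 by -1.03 (0.103) and Col15a1 by -1.06 (0.0929). Of the 11 other settings, Col1a2 passed in 4 and Col18a1 in none. Col3a1 and Col6a1 passed under DESeq2 and with only the 8 libraries compared, and Col15a1 under DESeq2 (0.0417). That a gene passed in one of the comparisons with LowAhR and not in the other is no sign of a difference between the DNCB groups, which was tested directly above.

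The 11 collagen genes below the filter on low counts were Col2a1, Col11a2, Col24a1, Col6a4, Col9a1, Col9a2, Col10a1, Col19a1, Col22a1, Col25a1 and Col26a1. Col11a2 had 0 counts in all 16 libraries, which allows up to 3 counts, or 0.223 to 0.424 CPM before TMM scaling, in each. The others had 3 to 102 counts in all, in 1 to 5 libraries each. The type X gene Col10a1 had 59 of its 102 counts in LowAhR + AD replicate 1, all 38 counts of the neuronal transmembrane Col25a1 came from LowAhR + AD replicate 3, and 46 of the 71 counts of Col22a1 came from Cont replicate 1. These genes were left out of the reported test. With no filter on low counts edgeR called Col22a1, which had 0 counts in all 4 LowAhR + AD libraries and 46, 11, 0 and 2 in Cont, as lower in LowAhR + AD than in Cont, and it was also called without Cont replicate 3 or 4. None of the other 10 was called in any of these fits.

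Promoters of some of the genes that changed are shown because the type I and III genes fell in LowAhR + AD against Cont while Col7a1 rose. The windows are the 250 bases before the RefSeq transcript start (GRCm38.p6), 5′ to 3′ on the gene's strand, where they hold no annotated exon, with capitals at a TATA box (TATAAA), a GC box (GGGCGG) or a CCAAT box (ATTGG on the other strand). The Col3a1 window is chr1:45311288-45311537 on the plus strand, and the Col7a1 window is chr9:108953336-108953585 on the plus strand.
Col3a1: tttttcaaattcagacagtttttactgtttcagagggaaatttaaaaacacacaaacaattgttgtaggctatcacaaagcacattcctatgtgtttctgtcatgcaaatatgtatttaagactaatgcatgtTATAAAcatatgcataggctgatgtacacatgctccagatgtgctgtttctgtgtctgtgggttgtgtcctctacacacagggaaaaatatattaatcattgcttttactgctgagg
Col7a1: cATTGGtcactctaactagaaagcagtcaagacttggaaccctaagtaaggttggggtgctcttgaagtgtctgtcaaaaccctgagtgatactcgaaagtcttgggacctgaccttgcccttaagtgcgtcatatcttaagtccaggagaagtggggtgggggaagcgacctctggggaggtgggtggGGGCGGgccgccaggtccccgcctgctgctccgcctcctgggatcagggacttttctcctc

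The windows of Col1a2, Col17a1, Col18a1 and Col4a2 overlap annotated exons of these genes or, for Col4a2, of Col4a1, and only 30 bases around the nearest GC box or, for Col17a1, CCAAT box are given, with the boxes in capitals (CCGCCC is the GC box on the other strand). They lie at chr6:4505418-4505447 (plus strand), chr19:47692056-47692085 (minus), chr10:77166546-77166575 (minus) and chr8:11312745-11312774 (plus).
Col1a2: ggtggctggggaGGGCGGaggtatgcagac
Col17a1: aagtgtcagataATTGGaagggtggagtga
Col18a1: ctCCGCCCcgtcCCGCCCctgcccacccct
Col4a2: gacctgagcgcgCCGCCCgaggagctcccc

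The Col3a1 window held a TATA box 117 bases before the start, and the Col7a1 window a GC box 61 bases and a CCAAT box 249 bases before it. Both strands were searched, and no collagen window had overlapping matches of different motifs. RefSeq promoters were at hand for 35 of the 44 genes, with 38 entries. The GC box was found in 22 of the 38 (57.9%), beside 32.7% of all 32851 promoters, the CCAAT box in 13 (34.2%, beside 33.8%), the TATA box in 5 (13.2%, beside 12.4%) and the AP-1 motif TGANTCA in 1 (2.63%, beside 6.75%). Genes that fell (Col1a2, Col17a1) and genes that rose (Col18a1, Col7a1) both had such boxes. Col18a1 had another RefSeq entry (window chr10:77113706-77113955, minus strand), which is not printed and held none of these motifs. The window of Col4a4, which also fell, overlaps an annotated exon of Col4a3, is not printed and held none of these motifs. Col1a1 and Col12a1 had no RefSeq promoter entry. A match is a description of letters only.

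Genes that make, arrange, bind and degrade collagen were described from 7 lists of 85 genes, of which 81 were tested. In LowAhR + AD against LowAhR 19 of the 81 (23.5%) passed, 8 higher and 11 lower, beside 12.6% of all tested genes, with a median log2 fold change of 0.03 against 0.04 over all genes. The fibril-regulating matrix proteins held the most decreases, with 5 of 12 lower, none higher and a list median of -1.37. Sparc, a collagen-binding matricellular protein, was at 17572 ± 8636 CPM in LowAhR and 4437 ± 2392 CPM in LowAhR + AD (SD, n = 4), and fell by 1.99 on the log2 scale (adjusted p = 0.0139). Dermatopontin (Dpt, -2.15, adjusted p = 0.00313), fibromodulin (Fmod, -2.35, 0.0258) and tenascin X (Tnxb, -2.07, 0.00417), all of which affect fibril assembly, fell too.

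Of the procollagen processing and cross-linking enzymes 2 of 11 passed, both lower: the enhancer Pcolce2 (-2.72, adjusted p = 0.0100) and the N-propeptidase Adamts2 (-1.50, 0.0103). Of 19 folding and hydroxylation genes P4hb, a subunit of prolyl 4-hydroxylase, rose by 0.62 (adjusted p = 0.0320) and P3h3 fell (-1.18, 0.0299). Among the basement membrane partners 5 of 15 were higher and 1 lower. The laminin chains Lama5 (1.87, adjusted p = 0.0383) and Lama3 (1.63, 0.0102) rose, and nidogen 1 (Nid1), which links laminin to type IV collagen, fell (-1.35, 0.0480).

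Of 9 collagen receptor and uptake genes the receptor tyrosine kinase Ddr2 fell (-1.22, adjusted p = 0.0259), and of 8 genes of the TGF-beta axis the ligand Tgfb2 fell (-2.03, 0.00590). Of 7 collagen-degrading enzymes the collagenases Mmp13 (4.34, adjusted p = 0.0226) and Mmp8 (4.06, 0.0223) rose, Mmp13 from 2.11 ± 2.29 to 43.2 ± 46.2 CPM (SD, n = 4). Against Cont 29 of the 81 passed in LowAhR + AD, 9 higher and 20 lower, beside 21.8% of all tested genes. In LowAhR against Cont none passed, and 13 had an unadjusted p under 0.05, beside 13.7% of all genes. With BJIKT against LowAhR + AD none of the 81 passed (5 at an unadjusted p under 0.05, beside 9.46% of all genes); DESeq2 and limma voom called 0 in either comparison. LowAhR + AD + BJ against LowAhR gave 11, beside 6.77% of all genes, 3 higher and 8 lower, among them Mmp13 (4.53, adjusted p = 0.0294) and Sparc (-1.96, 0.0231).

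**Figure D4:**
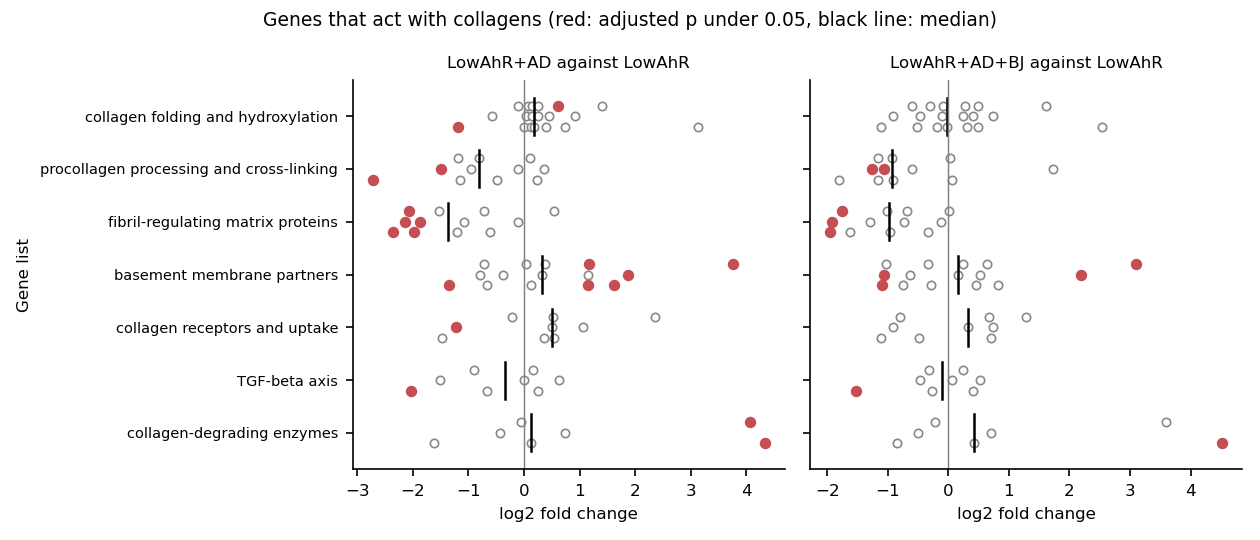
Log2 fold changes of the tested genes of the 7 collagen pathway lists in LowAhR + AD and in LowAhR + AD + BJ, each against LowAhR, with genes that passed in red and list medians as black lines. In LowAhR + AD the fibril-regulating proteins lie mostly below 0 with a median of -1.37, and the degrading enzymes reach 4.34.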

How the data were processed

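Per the labels, total RNA of skin was made into libraries with the Lexogen QuantSeq 3′ kit. The deposited tables hold counts of reads per gene as made by the authors, whose processing notes name Bowtie2, bedtools and the mm10 genome; their roles, the counting strand and the use of molecular identifiers are not given in the sources used here. Reads come from transcript ends, so CPM were not divided by length. Counts were tested with edgeR 4.0.16 in R 4.3.3: TMM factors, filterByExpr (count 10, total 15), which kept 14854 of 23282 genes, all 16 libraries in 1 quasi-likelihood model, 5 comparisons and a test over the 4 groups, and Benjamini-Hochberg adjustment across every tested gene (threshold 0.05). Named were all collagens that passed in any comparison, the 3 of each class with the highest mean CPM, and at most 4 passing genes of each pathway list. Col4a6, Col5a1, Col5a2, Col5a3, Col8a1, Col11a1, Col15a1, Col16a1, Col27a1 and those below the filter were added after their values were seen. A gene that this rule names is not reported here. Members and lists were chosen with earlier results of these data known. Replicates of a group differed by more than sampling noise (chi-square per degree of freedom 16.9 to 300 in 24 pairs). The scripts were tested on simulated data. Alternatives used limma 3.58.1, DESeq2 1.42.0, other scaling factors and filters, a replicate block and leaving out each library.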

Additional observations from a re-analysis of the deposited data

Results flagged for a closer look

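For 5 of 52 sets of 4 libraries of the named collagen genes a single library lay far from the other 3 of its group by Dixon's criterion. For normally distributed values chance alone meets this criterion in about 1 of 20 sets. It was applied to CPM on a linear scale, and in all 5 sets the library was the highest of its group. Col3a1 in LowAhR replicate 2 stood at 9737 CPM, against 4529.6 to 4863 CPM in the other 3. Col1a2 in LowAhR + AD + BJ replicate 3 stood at 5747 CPM, against 2404 to 2970.5 CPM. Col18a1 in LowAhR + AD replicate 1, the library with the most genes at 0 counts, stood at 221 CPM, against 65.5 to 92.0 CPM. Col6a2 in LowAhR + AD replicate 3 stood at 332 CPM, against 83.1 to 106 CPM, and Col6a1 in LowAhR + AD + BJ replicate 1 at 89.3 CPM, against 59.8 to 64.7 CPM.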

How the results depend on the processing

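The cause of the changes given here was not tested. In LowAhR + AD against LowAhR 7 collagen genes passed in the reported fit, 4 when a change of at least 1.5-fold was tested and 5 to 8 with 1 library left out; against Cont 9 passed, and 7 to 10 with 1 library left out, and over the 4 groups 7 to 11. In LowAhR + AD + BJ against LowAhR 3 passed, and 8 under DESeq2, 5 with at least 10 counts in every library, 1 with a change of at least 1.5-fold, 6 with only the 8 libraries compared, and 2 to 5 with 1 library left out. The diet comparison (LowAhR against Cont) and the BJIKT comparison (LowAhR + AD + BJ against LowAhR + AD) gave 0 collagen genes under every alternative run. Of the 81 pathway genes 19 passed in LowAhR + AD against LowAhR, 7 at 1.5-fold, 9 with only 8 libraries and 8 to 21 with 1 library left out (12, 8 and 11 without LowAhR replicates 1, 2 and 3 and 11 without LowAhR + AD replicate 4). Against Cont 29 passed, 14 at 1.5-fold and 17 to 30 with 1 library left out (17 and 19 without Cont replicates 2 and 4 and 17 without LowAhR + AD replicate 4). In LowAhR + AD + BJ against LowAhR 11 passed, 18 under DESeq2, 2 at 1.5-fold and 3 to 14 with 1 library left out (6, 4 and 6 without LowAhR replicates 1, 2 and 3 and 4, 3 and 3 without LowAhR + AD + BJ replicates 1, 2 and 4), and in LowAhR against Cont 1 passed with only 8 libraries. Deviations from the group means correlated at -0.0547 to 0.167 between same-numbered libraries of different groups (3 of 24 pairs over 0.1). Between differently numbered libraries the range was -0.146 to 0.14. These values cannot exclude that replicate numbers pair the samples. With the replicate block 8, 8 and 4 collagen genes passed in the comparisons with 7, 9 and 3. The block added Col11a1 to the first (adjusted p = 0.0408), ended the Col7a1 call in the second (0.0741) and added Col1a2 to the last. Signs turned for these log2 estimates: Col3a1 with BJIKT against LowAhR + AD became 0.27 under limma voom and 0.16 with the replicate block, and Col6a1 in LowAhR + AD against LowAhR became -0.021 with upper-quartile factors, -0.14 under limma voom and -0.054 with the block. With 1 library left out, estimates with BJIKT against LowAhR + AD ran from -0.47 to 0.46 for Col3a1, -0.086 to 0.68 for Col4a4, -0.32 to 0.51 for Col1a1, -0.045 to 1.04 for Col1a2 and -0.32 to 0.25 for Col12a1, and in LowAhR + AD against LowAhR from -0.26 to 0.58 for Col6a3, -0.19 to 0.79 for Col6a2 and -0.48 to 0.26 for Col6a1. Of the single-gene estimates under alternatives, 976 kept direction and side of the threshold, 31 newly passed, 41 no longer passed and 21 changed sign.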
